A study of Mus musculus with 11 samples.

Results

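A set of 7 genes of the major histocompatibility complex (MHC) class I pathway was followed in fetal mouse germ cells and in other cells of the fetal gonad. They are the heavy chain genes H2-Bl, H2-K1 and H2-D1, the light chain gene B2m, the peptide transporter genes Tap1 and Tap2, and the loading factor gene Tapbp. All probes that carry these symbols on the array were taken, which gave 15 probes for 7 genes out of 45281 probes and 19057 named genes. The set was chosen on array signal, because H2-Bl falls steeply after E11.5 (E, embryonic day), so the comparisons with E11.5 are given here for its members as descriptions, with no test, and H2-Bl is tested nowhere. The 11 samples come from gonads of crosses between (CBA/CaJ X C57BL/6J)F16+ mice and the Hsd:ICR(CD-1) stock, in which green fluorescent protein under Pou5f1 regulation marks germ cells. There were 3 biological replicates of sorted GFP-positive germ cells at each stage, E11.5, E13.5 and E15.5, and 2 of the cells without GFP, called non-germ here, from male E13.5 gonads. Every group carried the same cross and reporter, and no group was treated. The E11.5 replicates are labelled male/female and all others male, so stage and sex cannot be told apart in comparisons with E11.5. The labels do not give the number of embryos behind a replicate.

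MHC class I molecules show short peptides from inside the cell to cytotoxic T cells and natural killer cells. A heavy chain pairs with beta-2-microglobulin, the product of B2m, and takes up a peptide that the proteasome has cut and that the transporter of Tap1 and Tap2 has carried into the endoplasmic reticulum, where tapasin, the product of Tapbp, holds the empty molecule at the transporter. H2-K1 and H2-D1 encode classical, highly polymorphic heavy chains that most body cells display, whereas H2-Bl is a nonclassical gene of the H2-T region, named for blastocysts, and the RefSeq gene table classes it as a transcribed pseudogene. The cofactor Nlrc5, interferon response factors and NF-kappa B act on class I promoters. Heavy chain genes are close paralogs of each other, and more than 1 strain enters this cross. How well each probe matches each allele, and whether it also binds related transcripts, was not tested, so heavy chain values are uncertain as to which paralog they report.

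The promoters of the members whose levels are described most fully below are shown first, because class I heavy chain and B2m promoters are known to share short control elements. RefSeq (GRCm38.p6) gives a promoter, from 250 bases before to 50 bases after the annotated start, for 5 of the 7 members. Capitals mark a kappa B core (GGGATTCCC), an interferon-stimulated response element, the CRE half-site of the X box (TGACG), or one of the boxes named for their letters, CCAAT and TATAAA. Each was searched on both strands. The H2-K1 window is chr17:34000298-34000597 on the minus strand, that of H2-D1 is chr17:35262844-35263143 on the plus strand, and that of B2m is chr2:122147437-122147736 on the plus strand.
H2-K1: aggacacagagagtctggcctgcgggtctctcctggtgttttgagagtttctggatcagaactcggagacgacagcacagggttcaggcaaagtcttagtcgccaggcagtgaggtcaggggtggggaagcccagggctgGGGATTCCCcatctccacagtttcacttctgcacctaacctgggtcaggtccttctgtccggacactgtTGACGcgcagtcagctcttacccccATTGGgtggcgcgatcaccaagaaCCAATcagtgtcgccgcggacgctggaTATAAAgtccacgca
H2-D1: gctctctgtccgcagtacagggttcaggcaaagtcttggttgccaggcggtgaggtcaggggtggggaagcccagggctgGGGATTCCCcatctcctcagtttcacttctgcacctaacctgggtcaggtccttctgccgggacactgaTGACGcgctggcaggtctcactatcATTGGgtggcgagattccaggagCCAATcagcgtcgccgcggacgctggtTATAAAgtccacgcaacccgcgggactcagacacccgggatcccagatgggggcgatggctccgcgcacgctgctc
B2m: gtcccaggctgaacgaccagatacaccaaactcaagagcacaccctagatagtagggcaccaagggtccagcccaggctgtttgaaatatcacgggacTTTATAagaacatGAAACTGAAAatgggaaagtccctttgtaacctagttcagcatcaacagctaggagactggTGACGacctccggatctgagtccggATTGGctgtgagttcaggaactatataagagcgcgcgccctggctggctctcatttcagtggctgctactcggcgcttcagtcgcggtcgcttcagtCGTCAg

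The kappa B core lay at -110 to -102 in H2-K1 and at -170 to -162 in H2-D1, counted from the annotated start, and was found in 0.353% of 32851 RefSeq promoters of the same length. In both heavy chain promoters it was followed by TGACG, by CCAAT on each strand and by TATAAA, in the same order. TATAAA lay at 36 to 41 in H2-K1, after the annotated start, and at -26 to -21 in H2-D1. The B2m window held GAAACTGAAA at -139 to -130, an element found in 3.44% of the promoters, and TGACG at -78 to -74 followed by CCAAT on the minus strand at -53 to -49. TGACG occurred in 20.8% of all promoters, CCAAT in 37.4% and TATAAA in 13.6%. The Tap1 window held TGACG, 1 CCAAT box and 1 GC box (GGGCGG, in 35.7% of the promoters), and the Tapbp window held 2 CCAAT boxes and 1 GC box. A match is a description of the letters in this window. Variant forms of these elements were not searched, so a promoter without a match may still hold one.

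Levels are background-corrected, quantile-scaled array intensities on a log2 scale, given as mean ± SD over the arrays of a group, and levels of different probes are not compared with each other. A probe counted as detected on an array when its detection p-value was below 0.01. Per array, 14860 to 18657 probes were detected, and the lowest detected value lay between 5.75 and 6.34. The mean of 11 germ cell markers was 10.56 to 11.63 on the germ cell arrays and 5.55 to 5.59 on the non-germ arrays. All 11 were called higher in germ cells at E13.5, where 30.8% of all genes were. E15.5 replicate 2 stood apart. Its mean over 12 interstitial markers was 10.02. It was 6.54 and 6.59 in the other E15.5 replicates, 5.51 to 5.79 in E13.5 germ cells and 10.91 to 10.95 in the non-germ arrays. Its leukocyte, endothelial, Sertoli, fetal Leydig and erythroid marker means were also the highest of the germ cell arrays. Calls and counts from E13.5 to E15.5 that change without it are given both ways. Some genes passed the filter on dim probes only through the group in which they are high. Such genes had to differ between groups, so their values are a description with no test, and counts of called genes that hold them are also given without them.

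H2-Bl was high at E11.5 and near or below the detection limit afterwards. Its 1 probe read 9.67, 9.16 and 9.82 in the 3 E11.5 replicates, all detected. In the E13.5 replicates it read 5.28, 5.55 and 6.18 and in those of E15.5 6.37, 5.50 and 5.75, with 1 of 3 arrays detected at each stage. The 2 non-germ arrays read 5.19 and 4.71, both undetected. Every E11.5 array thus lay above every other array, and the E13.5 and E15.5 values overlapped. The difference was -3.88 ± 0.30 (estimate ± SE) from E11.5 to E13.5, a 14.7-fold lower mean, and -3.67 ± 0.30 from E11.5 to E15.5. On the intensity scale before any correction, the probe read 745.52 to 1215.04 in the E11.5 replicates, 258.37 to 284.32 in E13.5 germ cells, 251.68 to 317.99 in the E15.5 replicates and 200.57 to 232.89 in the non-germ fraction. Without background correction the difference from E11.5 to E13.5 was -1.84 and in the authors' rescaled values it was -1.63, so the fold depends on that step.

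**Figure D1:**
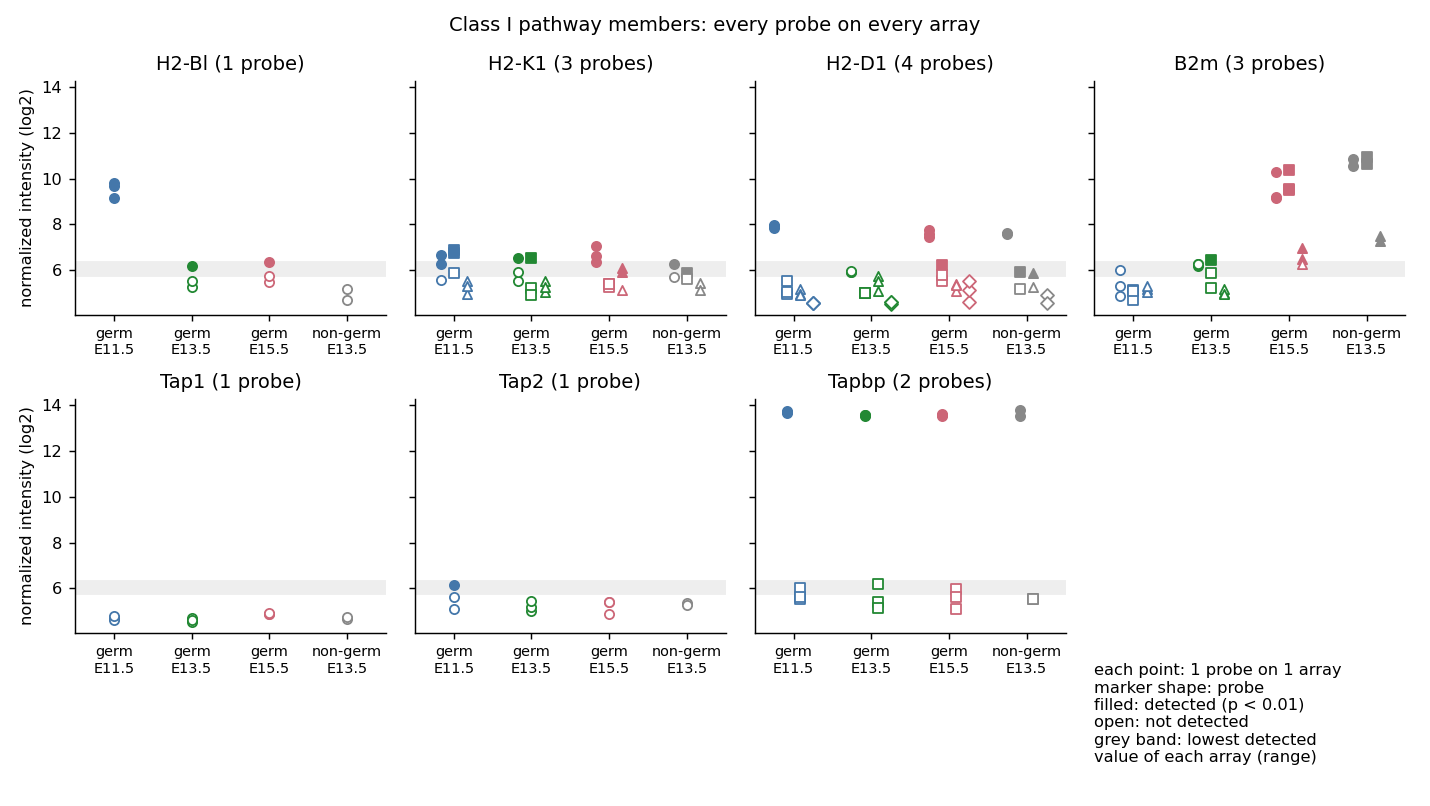
Normalized log2 intensity of all 15 probes of the 7 genes (vertical axis) in the 4 groups (horizontal axis), with 1 point for each probe and array, filled where detected, and a grey band for the range of the lowest detected value. H2-Bl stood at 9.16 to 9.82 at E11.5 and at 6.37 or below elsewhere, B2m rose at E15.5 on all 3 probes, and Tap1 was detected on no array.

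H2-D1, the classical heavy chain with the clearest course, dipped at E13.5. Its brightest probe read 7.96, 7.91 and 7.82 in the E11.5 replicates, then 5.94, 5.91 and 5.98 in those of E13.5, where no array detected it. The E15.5 replicates read 7.46, 7.74 and 7.59 and the non-germ pair 7.63 and 7.60, with every array detected. The 3 E13.5 arrays lay below all 8 others. Against the lowest detected value of each E13.5 array, the level at E11.5 was at least 3.32-fold higher. The level at E15.5 was at least 2.70-fold higher than at E13.5 (measured difference 1.66 ± 0.13, adjusted p = 9.99e-06). In non-germ cells it was at least 2.73-fold higher than in E13.5 germ cells (germ minus non-germ -1.67 ± 0.15, adjusted p = 9.44e-06). The measured differences shrank to 0.55 and -0.56 without background correction and to 0.47 and -0.44 in the authors' rescaled values, and both calls held.

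The other 3 H2-D1 probes were at the detection limit. One of them, detected on 1 E15.5 and 1 non-germ array, stood at 4.99 ± 0.017 in E13.5 germ cells, as against 5.85 ± 0.35 in the E15.5 replicates. The difference was 0.85 ± 0.25, given with no test because this probe would not pass the filter without its E15.5 detection. Another was detected on 1 non-germ array and the last on none. The dip of H2-D1 from E11.5 to E13.5 thus rests on 1 probe: the second kept probe read 5.18 ± 0.30 and 4.99 ± 0.017 at those stages, undetected at both.

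H2-K1, the other classical heavy chain, stayed close to the detection limit and its 3 probes did not agree. The brightest read 6.64, 5.58 and 6.25 in the E11.5 replicates and 6.53, 5.51 and 5.91 in those of E13.5. It read 6.63, 7.06 and 6.38 in the E15.5 replicates, and 6.28 and 5.68 in the non-germ pair. The stages overlapped, although E15.5 was the only group with all arrays detected. The difference from E13.5 to E15.5 was 0.71 (95% interval -0.03 to 1.44, adjusted p = 0.112). Without E13.5 replicate 1 it was 0.99 (adjusted p = 0.0465), and without E15.5 replicate 2 it was 0.52 (adjusted p = 0.262). Between germ and non-germ cells the 95% interval of the difference ran from -0.83 to 0.82 (adjusted p = 0.998). The second probe was highest at E11.5, at 6.50 ± 0.53, and undetected on all E15.5 arrays at 5.35 ± 0.079, while the third was detected only on 2 E15.5 arrays. Pearson r between these probes over the 11 arrays, which share groups and scaling, was 0.01, 0.43 and -0.18.

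B2m, the light chain that every class I heavy chain of this kind needs at the cell surface, was close to the detection limit until E13.5 and clearly present at E15.5. Its brightest probe read 5.99, 5.29 and 4.88 at E11.5, all undetected. At E13.5 it read 6.27, 6.18 and 6.28, with 2 of 3 arrays detected. The E15.5 replicates read 9.20, 10.28 and 9.13, and the non-germ pair 10.57 and 10.85. The 4 groups did not overlap, and their order was E11.5, E13.5, E15.5, non-germ. The difference from E13.5 to E15.5 was 3.29 ± 0.33, a 9.81-fold higher mean (adjusted p = 3.80e-05). At E13.5 germ cells lay 4.46 below non-germ cells (-4.46 ± 0.37, 22.1-fold, adjusted p = 6.21e-06). Against E11.5, where no array detected it, the E15.5 level was at least 10.7-fold higher.

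From E13.5 to E15.5 all 3 B2m probes were called higher, with p adjusted over all kept probes. The second probe rose by 3.96 ± 0.32 (adjusted p = 9.59e-06). The third, undetected at E13.5, was at least 1.32-fold higher at E15.5 (adjusted p = 0.000157). Its E11.5 and E13.5 arrays, all undetected, overlapped at 5.17 ± 0.12 and 5.05 ± 0.11, so it does not show the step between those stages. Between the 3 probes, Pearson r over the 11 arrays was 0.956 to 0.988. The E15.5 array with the most B2m was replicate 2, the array with high interstitial markers, at 1436.21 on the uncorrected intensity scale, while the lowest E15.5 array read 659.93. Without it the rise was 2.95 ± 0.26 (adjusted p = 1.65e-05), and that of H2-D1 was 1.59 ± 0.14 (adjusted p = 1.65e-05). The rise of B2m was 2.00 without background correction and 1.71 in the authors' rescaled values. Each of these settings chose the brightest probe anew, so these values can come from the second probe.

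Markers of other gonadal cells were compared over the same interval, in which 21.2% of all genes were called higher and 21.4% lower. Called higher were 4 of 12 interstitial, 3 of 13 Sertoli, 3 of 7 erythroid, 2 of 8 leukocyte, 2 of 12 endothelial and 0 of 7 fetal Leydig markers. Called lower were 2 of the 12 endothelial markers and 0 of the other lists. Of the endothelial markers called higher, 1 (Tek) passed the filter only through E15.5. Without E15.5 replicate 2 these counts were the same, except that 1 leukocyte marker was called lower. Beside the B2m values of 9.20 and 9.13 in E15.5 replicates 1 and 3, the leukocyte marker means were 6.15 and 5.88, each with 2 of 8 markers detected, as against 5.65 to 5.80 in E13.5 germ cells and 6.37 to 6.99 on the non-germ arrays. Coro1a of that list read 9.25 and 8.97 in these replicates, above the 6.91 and 7.92 of the non-germ arrays, and so raised these means. Col9a3 of the Sertoli list likewise read 10.91 to 11.23 in E13.5 germ cells and 6.16 and 6.83 on the non-germ arrays. Interstitial and Sertoli markers were uneven in E15.5 replicates 1 and 3, where 5 and 6 of 12 interstitial and 3 and 9 of 13 Sertoli markers were detected. Pdgfra, a receptor of interstitial cells, read 9.80 and 10.04, against 6.39 to 7.34 in E13.5 germ cells and 12.53 to 12.66 on the non-germ arrays. Col6a1, a collagen gene, read 8.28 and 8.46, against 4.97 to 5.43 and 12.39 to 12.69, and Sox9, the Sertoli cell transcription factor, read 9.86 and 10.53, against at most 8.36 in E13.5 germ cells. The interstitial transcription factor gene Nr2f2, in contrast, read 4.89 and 4.88, against 4.83 to 5.62 and 9.87 to 10.01. Col1a2 of the interstitial list read 5.70 and 4.93, against 5.05 to 5.86 and 11.21 to 11.33. Nr5a1 of the Sertoli list read 5.28 and 5.21, against 4.77 to 5.35 and 6.95 to 7.74. The part of these cells in the members' values was not tested. In such bulk samples, fewer cells of a type and less RNA per cell cannot be told apart.

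**Figure D2:**
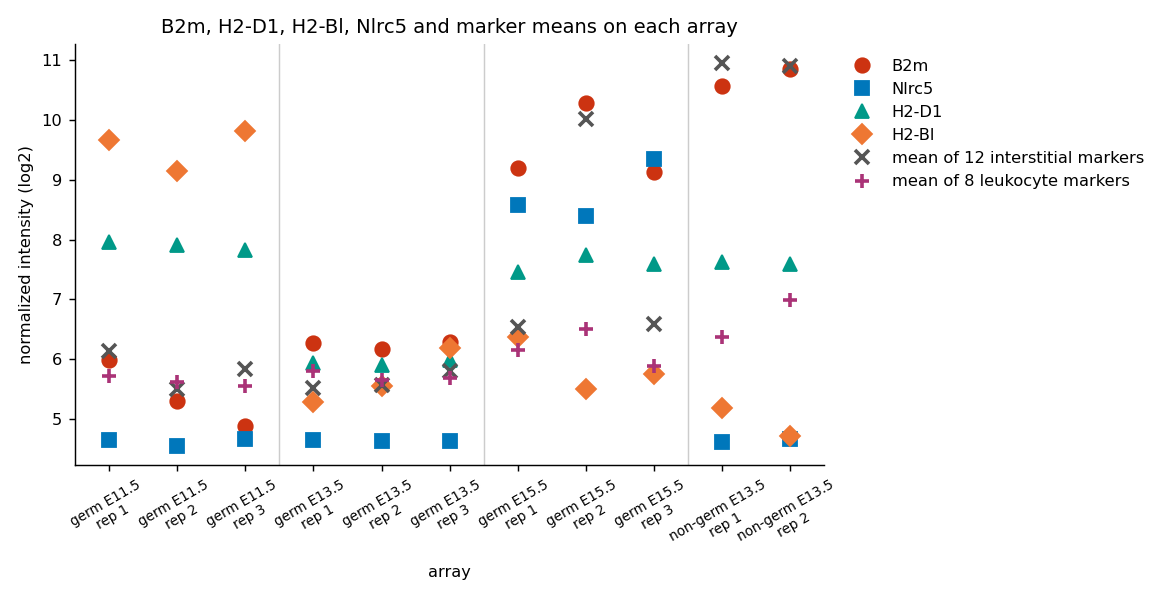
Normalized log2 intensity (vertical axis) of B2m, H2-D1, H2-Bl and Nlrc5 on each of the 11 arrays (horizontal axis), with the means of 12 interstitial and 8 leukocyte markers. The interstitial mean reached 10.02 on the array of E15.5 replicate 2, with 6.54 and 6.59 on the others of that stage, whereas Nlrc5 read 8.39 in replicate 2 and 8.58 and 9.35 in the others.

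The transporter genes were not measurably present in any group. Tap1 was detected on none of the 11 arrays and read 4.54 to 4.92. Tap2 was detected on 1 array, E11.5 replicate 3, at 6.14, and otherwise read 4.89 to 5.63. Neither passed the filter on dim probes, so neither was tested, and each has 1 probe on the array. Their levels were not detectable at this signal over background, which does not show that they are absent.

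Tapbp gave opposite pictures on its 2 probes. One, annotated to a different transcript record from the other, was among the bright probes on all 11 arrays, with means of 13.70 ± 0.053, 13.56 ± 0.031 and 13.57 ± 0.039 over the successive stages and 13.67 ± 0.18 in the non-germ fraction. The other was detected on no array and read 5.10 to 6.18. On the bright probe the difference from E13.5 to E15.5 had a 95% interval of -0.28 to 0.30 (adjusted p = 0.943), and that between germ and non-germ cells one of -0.44 to 0.21 (adjusted p = 0.543). With cyclic loess scaling in place of quantiles, the second difference was -0.50 (adjusted p = 0.0151).

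Of the 4 members tested from E13.5 to E15.5, 2 rose (B2m and H2-D1) and 0 fell, where 21.2% of the 11598 genes were called higher and 42.5% in either direction. Of the same 4 members between germ and non-germ cells at E13.5, 2 were lower in germ cells and 0 higher, where 26.2% of all genes were called lower and 57% in either direction. The comparisons share the E13.5 arrays, so the low E13.5 values of B2m and H2-D1 enter both. H2-Bl stood at 5.67 ± 0.46 in E13.5 germ cells and 4.95 ± 0.34 in non-germ cells. By ranges alone, and as a description of the 5 members with a kept probe, the arrays of the groups did not overlap for 4 members between E11.5 and E13.5 (40.8% of all genes), 2 between E13.5 and E15.5 (51.1%), 4 between E11.5 and E15.5 (55.4%) and 3 between the germ and non-germ fractions (74.5%). The counts against E11.5 include H2-Bl, whose separation there follows from how the set was chosen. They also pool rises and falls. From E11.5 to E15.5 the members carry no call, and 49.9% of all genes were called, 25.7% higher and 24.2% lower.

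The genes known to act on class I promoters did not move as a group, and the class I cofactor Nlrc5 was detected at E15.5 alone. Nlrc5 read 8.58, 8.39 and 9.35 at E15.5. It was undetected on all 8 other arrays, with means of 4.62 ± 0.057 and 4.63 ± 0.011 at the earlier stages and 4.64 ± 0.030 in the non-germ fraction. The E15.5 level was at least 6.11-fold higher than at E13.5 (measured difference 4.14 ± 0.22), and the measured difference was 4.33 without E15.5 replicate 2. It passed the filter only through E15.5, so no test is given. It was 1.70 without background correction and 1.37 in the authors' rescaled values. Non-germ cells had the highest B2m level of the 4 groups and no detected Nlrc5. A link between B2m and Nlrc5 was not tested.

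Among 16 such transcription factor genes tested of 21 listed, 2 were called higher and 2 lower from E13.5 to E15.5, with a median difference of -0.09 against 0.02 over all genes. Of all genes, 21.2% were called higher and 21.4% lower. Without Nlrc5, 1 of 15 was higher. Stat3, a cytokine-activated transcription factor, rose by 1.79 ± 0.22 (adjusted p = 0.000121). Irf1, an interferon-induced activator of class I genes, fell from 10.51 ± 0.17 to 9.20 ± 0.29 (-1.31 ± 0.23, adjusted p = 0.00101). Creb1, which binds the CRE half-site, fell by 0.99 ± 0.21 (adjusted p = 0.00356). At E13.5, Irf1 was higher in the germ cell fraction by 2.49 ± 0.25 (adjusted p = 2.19e-05), whereas B2m and H2-D1 were lower there. A link between Irf1 and these members was not tested. Without E15.5 replicate 2, 3 of the 16, Nlrc5 among them, were called higher and 3 lower.

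Of 23 other class I heavy chain genes in the MHC, 18 had a probe and 7 passed the filter. From E11.5 to E13.5, 0 of the 7 were called higher and 3 lower, where 10.8% of all genes were called higher and 7.94% lower (18.8% in either direction). Without H2-Q6, which passed the filter only through E11.5, 2 of 6 were lower. The 3 were H2-T23, H2-Q6 and H2-Q5, and their levels at E13.5 were undetected. H2-T23, which encodes Qa-1, a ligand of natural killer cell receptors, read 8.78, 8.57 and 8.97 in the E11.5 replicates, as against 5.80, 5.41 and 6.02 in those of E13.5, and was at least 6.08-fold higher at E11.5 (measured difference -3.03 ± 0.24, adjusted p = 2.29e-05). H2-Q6 was at least 2.14-fold higher at E11.5 (-1.79 ± 0.21, no test) and H2-Q5 at least 1.78-fold (-1.37 ± 0.17, adjusted p = 0.000315). In these 3 genes every E11.5 array was above every E13.5 array. Arrays of these stages did not overlap, in either direction, for 40.8% of all genes, so this is a description. Without background correction the 3 measured differences were -1.26, -0.53 and -0.38.

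From E13.5 to E15.5, 3 of these 7 heavy chains rose and 0 fell, with a median difference of 0.19, where 21.2% of all genes were called higher and 21.4% lower. H2-Q5 rose from 5.62 ± 0.18 to 7.45 ± 0.19 (at least 2.44-fold, adjusted p = 2.08e-05), close to the 7.63 ± 0.077 of non-germ cells. H2-T23 rose by 0.91 ± 0.24 (at least 1.40-fold, adjusted p = 0.0107) and H2-T22 by 0.84 ± 0.23 (at least 1.11-fold, adjusted p = 0.0143). Without E15.5 replicate 2, 3 of the 7 again rose, and without background correction 1 of the 7 did. H2-Q6 did not return, at 5.56 ± 0.35 and undetected on all E15.5 arrays. Between germ and non-germ cells at E13.5, 3 of the 7 were lower in germ cells (H2-Q5, H2-T22 and H2-T23), where 26.2% of all genes were. Called higher was 1 of the 7, where 30.8% of all genes were. That 1 was H2-T10 (0.81 ± 0.31, adjusted p = 0.0431), undetected in non-germ cells, whose difference was -0.38 when all its kept probes were averaged.

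**Figure D3:**
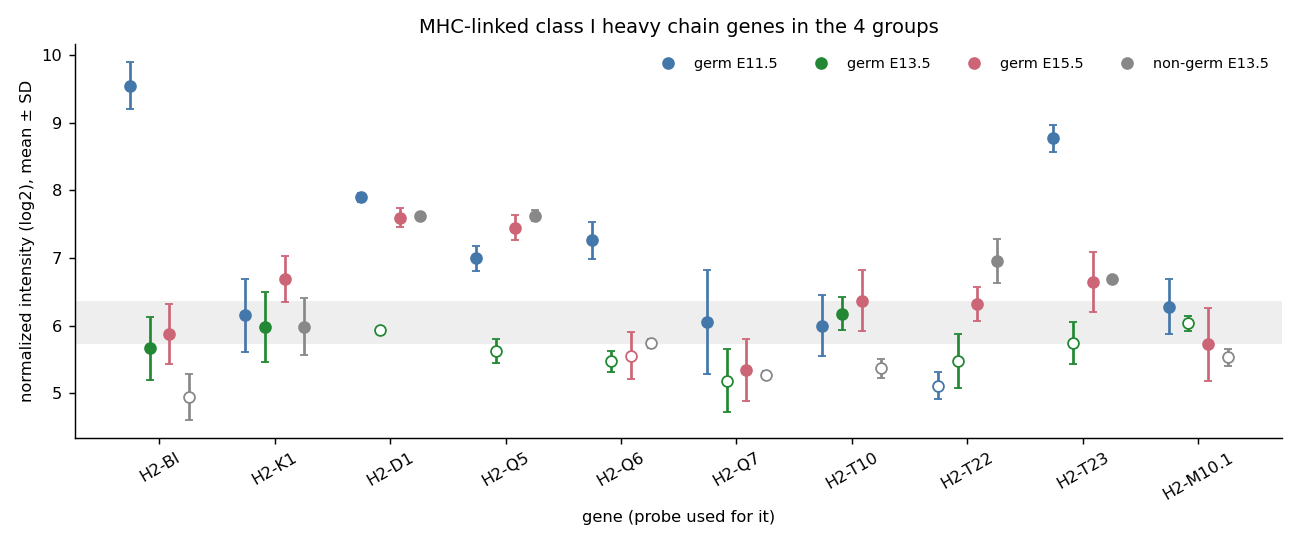
Group means ± SD of normalized log2 intensity (vertical axis) for the class I heavy chain genes of the MHC that passed the filter (horizontal axis), with open symbols where no array of the group detected the probe and a grey band for the range of the lowest detected value. H2-D1 and H2-Q5 are low in E13.5 germ cells alone, H2-Bl and H2-Q6 are high at E11.5 alone, and H2-T23 falls from 8.77 at E11.5 to 5.74 at E13.5.

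H2-Bl lies in the H2-T region between H2-T22 and H2-T10 in the gene order of the RefSeq table, next to Gm6034, which was not tested. Of the 10 nearest genes tested, 5 on each side, H2-T23 was the 1 called from E11.5 to E13.5, where 18.8% of all genes were called. H2-T22 differed by 0.37 ± 0.23 (adjusted p = 0.325) and H2-T10 by 0.18 ± 0.27 (adjusted p = 0.735). The neighbours with no class I role included Abcf1, a translation factor gene, at -0.01 ± 0.16 (adjusted p = 0.970), and Rpp21, an RNase P subunit gene, at 0.29 ± 0.17 (adjusted p = 0.262). Over a wider list of 13 tested MHC-region genes with no class I role, 0 rose and 0 fell from E11.5 to E13.5, with limma's smallest adjusted p at 0.0727 (Rgl2). Of all genes, 10.8% were called higher and 7.94% lower over that interval. From E13.5 to E15.5, 1 of the 13 rose and 5 fell, where 21.2% of all genes were called higher and 21.4% lower.

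Among the genes that make, trim and load peptides, 1 was called higher from E13.5 to E15.5 and several lower, where 21.4% of all genes were called lower. Of 6 loading chaperone genes tested, 0 rose and 2 fell, and 3 fell without E15.5 replicate 2. Calr, the lectin chaperone of the loading complex, fell by 1.47 ± 0.37 (adjusted p = 0.00845) and Ganab, the glucosidase that trims glycans for it, by 0.64 ± 0.15 (adjusted p = 0.00558). Pdia3, the thiol oxidoreductase paired with tapasin, differed by 0.04 ± 0.14 (adjusted p = 0.831). Of 7 immunoproteasome and activator genes, 0 rose and 3 fell. The interferon-inducible activator subunits Psme1 and Psme2 fell by 0.90 ± 0.15 (adjusted p = 0.000987) and 1.78 ± 0.28 (adjusted p = 0.000542), and Psme4, another activator, fell by 0.55 ± 0.14 (adjusted p = 0.0104).

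The immunoproteasome subunits themselves were not called from E13.5 to E15.5. Psmb8 stood at 5.78 ± 0.37 and 6.32 ± 0.61 (adjusted p = 0.224), Psmb9 at 5.51 ± 0.51 and 6.10 ± 0.34 (adjusted p = 0.112), and Psmb10 at 7.67 ± 0.12 and 8.02 ± 0.14 (adjusted p = 0.117). At E13.5 the 3 constitutive catalytic subunits were all higher in germ cells, led by Psmb5 at 1.06 ± 0.18 (adjusted p = 0.000523), and 3 of the 7 immunoproteasome and activator genes were higher as well. Of 6 peptide trimming genes, 1 rose and 1 fell from E13.5 to E15.5, where 21.2% of all genes were called higher and 21.4% lower. Blmh, a cytosolic aminopeptidase, rose by 0.57 ± 0.19 (adjusted p = 0.0296). Lap3, another aminopeptidase, fell by 0.89 ± 0.30 (adjusted p = 0.0347), and without E15.5 replicate 2 none was called lower. At E13.5, 3 of the 6 were higher in germ cells and 0 lower, with Thop1, a cytosolic peptidase, at 2.23 ± 0.26 (adjusted p = 5.24e-05). In that comparison 30.8% of all genes were called higher.

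Several genes through which cells receive interferon rose at E15.5. Of 10 receptor, kinase and feedback genes tested, 6 rose and 0 fell from E13.5 to E15.5, with a median difference of 0.65. Of all genes, 21.2% were called higher and 21.4% lower over this interval. Ifnlr1, a subunit of the type III interferon receptor, went from 6.27 ± 0.46 to 8.12 ± 0.33 (1.85 ± 0.26, adjusted p = 0.000297), and Ifnar1, of the type I receptor, from 7.18 ± 0.25 to 8.40 ± 0.33 (1.22 ± 0.23, adjusted p = 0.00164). Socs3, a feedback inhibitor of cytokine signalling, read 7.16, 9.28 and 7.87 at E15.5, highest in replicate 2, and was undetected at E13.5 (measured difference 2.85 ± 0.43, adjusted p = 0.000442, and 2.25 without replicate 2). Without that array, 6 of the 10 again rose. Of 13 interferon-stimulated genes, 2 were called higher and 1 lower, with a median difference of -0.04, and 3 higher and 1 lower without E15.5 replicate 2. Without Igtp, a GTPase gene that passed the filter only through E15.5, 1 of 12 was higher.

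**Figure D4:**
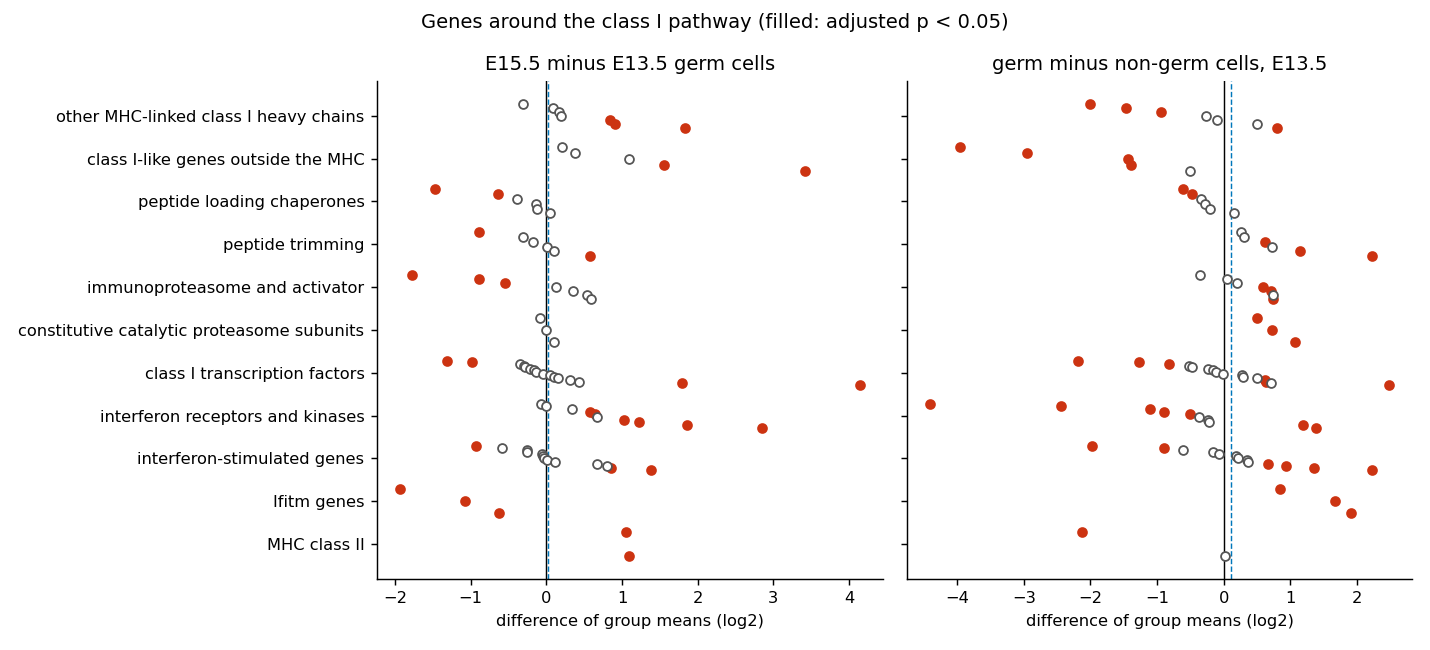
Difference of group means on the log2 scale (horizontal axes) for each tested gene of 11 lists around the class I pathway (rows), for E15.5 minus E13.5 germ cells on the left and germ minus non-germ cells at E13.5 on the right, filled where the adjusted p was below 0.05, with a dashed line at the median of all genes. Nlrc5 lies at 4.14 on the left, and the 3 Ifitm genes are lower at E15.5 and higher in germ cells. Some filled points, Nlrc5 among them, are genes that passed the filter only through the group where they are high. For those the fill is not a test.

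The members did not follow a common course. Over the 11 arrays, which fall into 4 groups, Pearson r of log2 levels was -0.70 between H2-Bl and B2m, 0.45 between H2-Bl and H2-D1, and 0.29 between H2-D1 and B2m. The genes with the course most like that of H2-Bl were Psors1c2 (r = 0.984), the nucleoside transporter gene Slc28a1 (0.978), the imprinted growth-restraining gene Phlda2 (0.977), Porcn, which acylates Wnt proteins (0.977), and Gng12 (0.975). Phlda2 stood at 11.22 ± 0.32 at E11.5 and 7.96 ± 0.081 at E13.5. B2m was most like Antxr1 (0.996), Bin1 (0.993) and Smarca1 (0.991). Antxr1, a collagen-binding receptor gene, stood at 5.24 ± 0.39, 6.05 ± 0.31 and 9.17 ± 0.50 in the 3 stages and at 10.46 ± 0.16 in non-germ cells. H2-D1 was most like 1500009L16Rik (0.969), Cyria (0.968) and Pdlim4 (0.964), each lowest at E13.5. For H2-K1 and Tapbp the highest r was 0.827 (Tmem94) and 0.837 (Irf3).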

How the data were processed

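RNA from 11 sorted samples was amplified, biotin-labelled and hybridised to Illumina BeadChip arrays, per the labels' protocols. The deposited table holds, per the file headers, each probe's intensity before normalization, in linear units, with a detection p-value beside it. A second table by the authors holds rescaled intensity values (column medians 315.07 to 341.75), whose method is not given in the sources used here; its values are linear, without gene centring. The number of arrays limits the precision.

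In R 4.3.3, limma 3.58.1 (neqc, offset 16, quantile scaling, log2) was run on the deposited signals. Probes detected at p below 0.01 on at least 2 arrays were kept (21943), and each gene took its kept probe with the highest mean (11598 genes). Of the members, 10 probes of 5 genes were kept. Of 45281 probes, 34885 had 1 symbol, 18 several and 10378 no entry. One limma fit of 4 group means (7 residual and 3.54 prior degrees of freedom) gave two-sided tests, and a call needed a p below 0.05 after Benjamini-Hochberg adjustment across all genes. For a probe undetected on every array of a group, folds are bounds against each array's lowest detected value. On data simulated for E15.5 against E13.5 with 11598 genes, 48 of 100 changes of log2 1 and 90 of 100 of log2 2 were recovered, with 5 false calls. Only these genes were changed, and the noise was independent between genes and arrays. In the real comparison 42.5% of genes were called, so the simulated rates need not hold for these data.

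The members and gene lists were chosen with earlier results of these data known. All members are named. From each list described, names were drawn from up to 3 called genes with the largest rise and fall per comparison. Where none was called, the gene with the smallest adjusted p was eligible. Not all eligible genes are named. A few others (Pdia3, Psmb8, Psmb9, Psmb10, Nr2f2, Col1a2, Nr5a1, Tek and neighbours of H2-Bl) were named for their role, level or position. The alternatives were other scalings, filters, probe choices, fits, a replicate block and leaving out each array. Under another scaling or filter, each gene's brightest probe was chosen anew, so a value there can come from a different probe. Probe sequences were not used here.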

Additional observations from a re-analysis of the deposited data

How the results depend on the processing

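The calls of B2m and H2-D1, from E13.5 to E15.5 and between germ and non-germ cells, held under all 22 alternatives, 11 of which leave out 1 array. Members called higher from E13.5 to E15.5 numbered 2 to 3, and members lower in the germ cell fraction 2 to 3. Of 3251 alternative values of 148 gene results, 2999 counted as unchanged, 212 were no longer called and 14 were newly called. Another 23, untested member values, moved beyond the replicate SD, and 3 values reversed. A tested value counted as unchanged when it stayed on its side of the threshold, with a sign change allowed where neither fit called it. An untested member value counted as unchanged within the replicate SD, whatever its sign. The reversals were H2-T10 between germ and non-germ cells, at -0.38 with the mean of kept probes, and H2-DMa from E13.5 to E15.5, at -0.0481 in the deposited rescaled values and -0.0524 without background correction. Both H2-DMa settings chose the brightest probe anew, so the probe can differ from that of the main fit. The cause was not tested.

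Of the 23 other class I heavy chains listed, 5 were called lower from E11.5 to E13.5 with no filter or detection at 0.05, against 3 in the main fit. Such looser filters can test more heavy chains than the 7 of the main fit, so the 5 may include genes outside the 7. From E13.5 to E15.5, 1 was called higher in the deposited values and without background correction. From E11.5 to E15.5, 2 were called higher in the main fit and 1 without background correction, with only the 2 groups compared, with an intensity trend or with the replicate block, and 1 to 2 when 1 array was left out. Between germ and non-germ cells, the 1 called higher became 0 in the deposited values, without background correction, with no filter, with the mean of kept probes or with an intensity trend, 2 with only the 2 groups compared, and 0 to 1 when 1 array was left out. Over all genes, 921 were called lower from E11.5 to E13.5, and 598 to 1267 when 1 array was left out, with 598 without E11.5 replicate 1 and 607 without E13.5 replicate 2.

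Cyclic loess shifted the median of all genes by 0.12 and 0.10 in the E15.5 comparisons with E13.5 and E11.5 and by -0.23 between germ and non-germ cells, and the share of calls that were higher went from 49.7%, 51.5% and 54.0% to 60.8%, 59.3% and 40.5%. Same-numbered replicates did not deviate together (r -0.108 to 0.131), and differently numbered ones gave r of -0.196 to 0.204. Deviations within such small groups cancel each other, so this check cannot exclude a pairing, and the main fit used none. With the replicate block, the rise of B2m was 3.29 (adjusted p = 0.000147) and that of H2-D1 1.66 (adjusted p = 0.000104). The slide as a block was not run, since the headers used here give no slides. Signals near background limit H2-K1, Tap1, Tap2 and the folds of every gene with an undetected group.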

Other observations

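Class I-like genes outside the MHC, which were not part of the member set, included a clear rise at E15.5. Raet1d, a ligand of the activating natural killer cell receptor NKG2D, read 8.58, 8.46 and 8.59 at E15.5, was undetected at E11.5 (5.17 ± 0.094) and E13.5 (5.13 ± 0.13), and stood at 6.52 ± 0.015 in non-germ cells. It was at least 5.20-fold higher at E15.5 than at E13.5 (measured difference 3.42 ± 0.14, adjusted p = 2.18e-07 by limma). Raet1e, a second such ligand, was at least 1.52-fold higher, which is given with no test because it passed the filter only through E15.5. Of 5 genes tested of this list, 2 were called higher and 0 lower from E13.5 to E15.5 (1 of 4 higher without Raet1e). Of all genes, 21.2% were higher and 21.4% lower. In the germ cell fraction 4 of the 5 were lower, where 26.2% of all genes were. Without Mr1 and Cd1d1, which passed only through the non-germ arrays, 2 of 3 were lower. The lower genes include Fcgrt, the neonatal Fc receptor that also pairs with beta-2-microglobulin, at 6.28 in germ and 10.24 in non-germ cells (-3.96 ± 0.58, adjusted p = 0.000214). Raet1 genes are close paralogs, and their probes may not separate them.

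The Ifitm genes, membrane proteins known as early germ cell surface markers, went the other way. All 3 tested fell from E13.5 to E15.5, where 21.4% of all genes were called lower. All 3 were higher in the germ cell fraction, where 30.8% of all genes were. Ifitm3 read 12.13, 11.20 and 9.27 over the successive stages and 9.29 in the non-germ fraction, and fell by 1.93 ± 0.15 over the second interval (adjusted p = 9.46e-06). Of 10 MHC class II genes, 2 passed the filter. Cd74, the invariant chain, passed only through E15.5, where 2 of 3 arrays detected it, at least 1.04-fold higher than at E13.5 and with no test given. H2-DMa, a peptide-loading subunit, read 4.97, 5.92 and 6.73 in the E15.5 replicates, 2 of them detected, and was undetected at E13.5. Its call there (adjusted p = 0.0265) comes with no fold, since its E15.5 mean of 5.87 lies below the lowest detected values at E13.5. Without background correction the difference was -0.0524. That setting chose the brightest probe anew, so the reversal can come from a different H2-DMa probe.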
